A study of Mus musculus with 9 samples.

Results

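The genes described are 10 grouped here as components of the tubular basement membrane: Col4a1, Col4a2, Col4a3, Col4a4, Lama5, Lamb1, Lamb2, Lamc1, Nid1 and Fn1. They were chosen by name from the 24421 genes of the table, all 10 were found, and all 10 were among the 15583 genes that passed the filter on low counts and were tested. Poly(A) RNA was sequenced from tdTomato-positive cells sorted from the kidney cortex of 9 C57BL/6 mice, 3 per group, with 1 library per mouse. All groups carried the SLC34a1GCE and R26tdTomato alleles and received 5 tamoxifen injections at 8 weeks of age. Cre from the Slc34a1 locus, active after tamoxifen, was used to label proximal tubular epithelium for the sort, and markers of other cells were also detected in the libraries. The *db/m* mice are heterozygous for the Leprdb mutation of the leptin receptor and non-diabetic, whereas the homozygous *db/db* mice are a model of type 2 diabetes and were given vehicle or, in the *db/db*-dapa group, dapagliflozin, an inhibitor of the glucose transporter SGLT2, at 1.5 mg/kg/day in drinking water over 8 weeks. The latter are called treated mice here, and *db/db* alone stands for the vehicle group.

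The tubular basement membrane is the sheet of matrix on which tubular epithelium rests. Its scaffold is a network of type IV collagen, in which each molecule is a trimer of α chains, joined to a network of laminin, in which each molecule holds an α, a β and a γ chain. Nidogen bridges the networks, and fibronectin is a matrix glycoprotein found in plasma and in interstitial and glomerular matrix. Thickening of this membrane is a known feature of the diabetic kidney.

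Library depth ranged from 4817670 to 6571539 counts in *db/m*, from 2733314 to 7635630 in *db/db* and from 6981183 to 9033062 in treated mice, and levels are given as CPM, counts scaled to a common library size by TMM. Counts for the 10 genes ran from 8, for Nid1 in a *db/m* mouse, to 2310, for Col4a3. The 10 proximal tubule markers were detected in every mouse, with a summed level of 14589 to 22551 CPM. Loop of Henle and distal tubule markers summed to 1011 to 2832 CPM, the largest sum of another cell type. Endothelial markers summed to 66.2 to 306 CPM and podocyte markers to 28.3 to 294 CPM, with 0 of the 10 endothelial and 0 of the 8 podocyte markers at 0 in any mouse. The podocyte sum stood apart in treated replicate 1, at 294 CPM against 28.3 to 96.9 CPM in the other mice. Since these are bulk samples, fewer cells of a type and less RNA per cell cannot be told apart.

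The genes lie as follows in GRCm38. Col4a1 (chr8:11198423-11312826, minus strand) and Col4a2 (chr8:11312805-11449287, plus strand), the chains of the collagen IV trimer present in all basement membranes, start 21 bases apart, and their first exons overlap on opposite strands. Col4a3 (chr1:82586921-82722059, plus) and Col4a4 (chr1:82448423-82586849, minus), chains of the specialised collagen IV trimer known best from the glomerulus, start head to head 72 bases apart. Lama5 (chr2:180176373-180225859, minus) encodes the laminin α5 chain, Lamb1 (chr12:31265234-31329644, plus) and Lamb2 (chr9:108479736-108490530, plus) the β1 and β2 chains, and Lamc1 (chr1:153218922-153332786, minus) the γ1 chain. Nid1 (chr13:13437551-13512269, plus) encodes nidogen-1 and Fn1 (chr1:71585520-71653200, minus) fibronectin. Exons of Col4a1, Col4a2, Col4a3, Nid1 and Fn1 overlap a gene on the other strand. The library kit keeps strand, but whether the counting used it is not stated, so reads over those overlaps are uncertain.

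Start-site sequences from RefSeq (GRCm38.p6), for which 7 of the 10 genes matched, show what lies before genes whose levels are compared here. Printed are the stretch before Lama5, the gene that met the criteria for a call in *db/db* mice, the gap shared by the starts of Col4a3 and Col4a4, and the stretches before Lamb1 and Lamb2, the alternative β chains. Each is the longest run outside annotated exons within 250 bases upstream of the RefSeq start, written 5′ to 3′ on the gene's strand. Capitals mark GC boxes (GGGCGG) and CCAAT boxes (CCAAT) on either strand.
Lama5, chr2:180225860-180226109, minus strand, 250 bases: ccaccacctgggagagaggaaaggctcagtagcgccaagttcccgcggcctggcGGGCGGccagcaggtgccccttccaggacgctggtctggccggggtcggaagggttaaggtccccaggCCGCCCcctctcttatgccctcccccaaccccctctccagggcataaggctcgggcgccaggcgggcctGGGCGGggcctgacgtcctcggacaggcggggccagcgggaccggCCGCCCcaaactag
Col4a4 to Col4a3 gap, chr1:82586850-82586920, minus strand, 71 bases: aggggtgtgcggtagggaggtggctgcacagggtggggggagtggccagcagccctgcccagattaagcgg
Lamb1, chr12:31265043-31265233, plus strand, 191 bases: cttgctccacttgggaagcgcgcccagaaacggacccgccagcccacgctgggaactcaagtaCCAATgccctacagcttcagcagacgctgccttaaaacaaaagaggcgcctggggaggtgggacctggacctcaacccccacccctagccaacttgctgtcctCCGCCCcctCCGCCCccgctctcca
Lamb2, chr9:108479612-108479735, plus strand, 124 bases: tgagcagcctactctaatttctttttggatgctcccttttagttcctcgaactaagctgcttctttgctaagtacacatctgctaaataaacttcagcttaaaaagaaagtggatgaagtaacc
The Lama5 stretch was 72.4% GC with 4 GC boxes. The gap between Col4a4 and Col4a3 was 69% GC and held none of the motifs searched. The Lamb1 stretch was 63.9% GC with 2 GC boxes and 1 CCAAT box, whereas the Lamb2 stretch, which ends 126 bases before the RefSeq start, was 37.9% GC with none. Over the whole 250-base windows, a GC box was found in 4 of the 7 genes against 32.7% of 32851 promoters, a CCAAT box in 4 of 7 against 33.8%, and a TATA box (TATAAA) in 0 of 7 against 12.4%. These matches describe letters and do not show binding.

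To compare genes with each other, levels were divided by the length of the longest annotated transcript. On this scale the 10 genes spanned 47.7-fold, from 25 CPM per kb for Lamb1 to 0.52 CPM per kb for Fn1 (means of the 3 group means). In *db/m* mice, Lamb1 was highest at 22 ± 4.98 CPM per kb (SD, n = 3). Col4a1 followed at 18.1 ± 5.58, Col4a2 at 14.0 ± 2.57, Col4a3 at 13.8 ± 5.81, Lama5 at 12.6 ± 1.34 and Col4a4 at 12.5 ± 3.14 CPM per kb. The ranges of neighbours in this order overlapped, so the α chains of both collagen IV trimers and laminin α5 were at levels that could not be ordered. Lamb2 (3.97 ± 2.56) and Lamc1 (2.62 ± 0.30 CPM per kb) formed a lower step that did not overlap Col4a4. Nid1 (0.54 ± 0.29) and Fn1 (0.35 ± 0.12 CPM per kb) were lower again, without overlap with Lamc1. The γ1 chain was below both the α5 and the β1 chain in every group. In *db/db* mice Lama5 ranked next to Lamb1, at 25.4 ± 4.97 CPM per kb, with a range that overlapped its neighbours, and in treated mice it ranked after the α chains Col4a1 to Col4a3 again, at 16.6 ± 2.00 CPM per kb. The length of the transcript that these cells use is not known, which limits the order but not comparisons of a gene between groups.

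**Figure D1:**
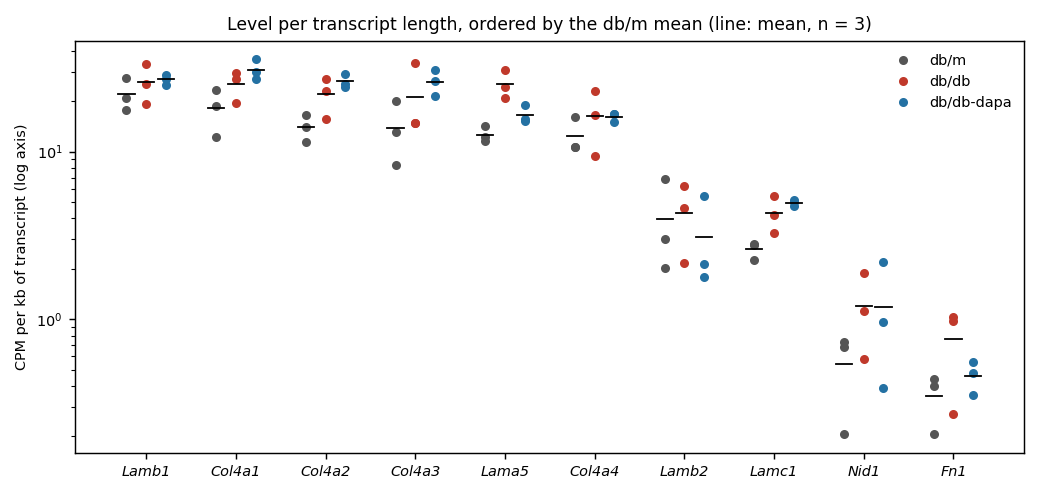
Level of each gene in CPM per kb of its longest transcript (log axis) in each mouse, by group, ordered by the *db/m* mean (lines are means, n = 3). The 6 genes on the left lie above Lamb2 and Lamc1, and Nid1 and Fn1 are lowest in each group.

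Lama5, whose product pairs with β1 or β2 and γ1 in the laminins of mature tubules, was higher in *db/db* than in *db/m* mice. Its level was 132, 139 and 161 CPM in the 3 *db/m* mice and 350.1, 278 and 238 CPM in the 3 *db/db* mice, and the groups did not overlap. Within each of these groups the level was higher in libraries with fewer counts. The highest value came from *db/db* replicate 1, the shallowest library at 2733314 counts, and the part of depth was not tested. The log2 fold change of Lama5 was 1.0 (SE 0.19, 2.00-fold), with an adjusted p of 0.0345 (edgeR, quasi-likelihood test, Benjamini-Hochberg adjusted over all genes). It was the 1 member of 10 called in this comparison, where a call needs a log2 fold change beyond 1 in either direction together with an adjusted p below 0.1, and 1.24% of all genes tested were called. It was also the 1 member with an adjusted p below 0.1 at any fold, against 1.67% of all genes. The fold lay at the threshold itself: under 10 other settings it ranged from 0.99 to 1.12 on the log2 scale, and it was called under 5 of them. The adjusted p exceeded 0.1 in 1 of these 10 settings, at 0.109 with only the 2 groups fitted. It was not called without *db/m* replicate 1 (log2 fold change 0.94, adjusted p = 0.184 in edgeR), without *db/m* replicate 2 (0.98, adjusted p = 0.129) or without *db/db* replicate 1 (0.84, adjusted p = 0.0812).

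Lama5 in treated mice was 215, 174 and 177 CPM, between the other groups and overlapping neither. Against *db/m* mice, the log2 fold change was 0.39 (SE 0.19, 95% interval -0.02 to 0.80, adjusted p = 0.292 in edgeR). Against *db/db* mice it was -0.61 (SE 0.19, 95% interval -1.02 to -0.20), with an unadjusted p of 0.00699 and an adjusted p of 0.854 in edgeR, so the difference did not pass the correction. Without *db/db* replicate 3 the adjusted p was 0.0934. The comparisons with *db/m* and with treated mice share the *db/db* mice. Lama5 and the summed endothelial markers were both lower in *db/db* replicate 3 than in the other *db/db* mice, the sum being 96.0 CPM there against 260 and 306 CPM. Over the 9 mice Pearson's r of Lama5 with that sum was 0.63, and its r with the proximal tubule sum was 0.03, as a description over mice of 3 groups. The part of other cells in the Lama5 result was not tested.

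**Figure D2:**
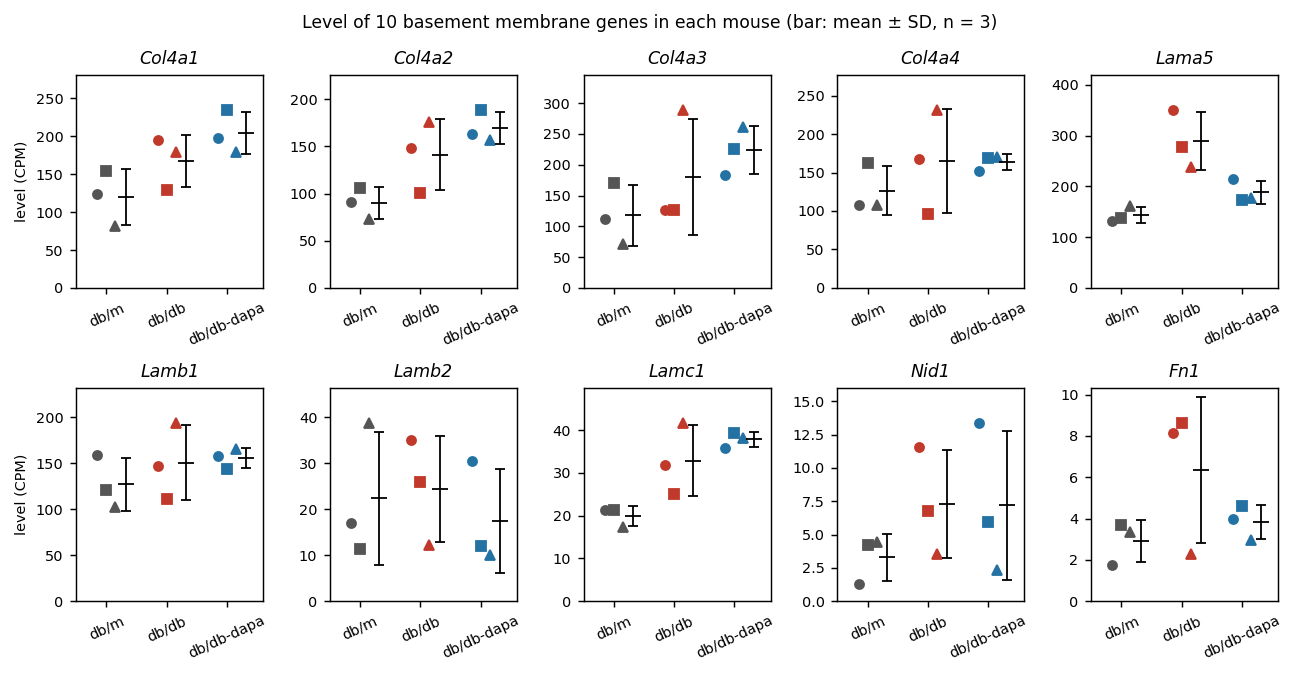
Level in CPM of each of the 10 genes in each mouse (circle, square and triangle are replicates 1, 2 and 3), with the mean ± SD of each group at its right (n = 3). Lama5 is the gene whose 3 groups do not overlap, with *db/m* lowest and *db/db* highest.

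Lamc1, the γ chain common to most laminins, was higher in both groups of *db/db* mice. It was at 21.3, 21.3 and 17.3 CPM in *db/m*, 31.9, 25 and 41.6 CPM in *db/db*, and 35.9, 39.4 and 38.2 CPM in treated mice. Neither *db/db* group overlapped *db/m*, while the *db/db* and treated groups overlapped. In treated against *db/m* mice, the log2 fold change was 0.92 (SE 0.20), and Lamc1 was the 1 member with an adjusted p under 0.1 (0.0826 in edgeR), against 1.31% of all genes tested. That adjusted p rose to between 0.10 and 0.364 when any 1 mouse was left out. In *db/db* against *db/m* mice, the log2 fold change was 0.72 (SE 0.20, adjusted p = 0.158 in edgeR).

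The β chains differed in level and in scatter. Lamb1, a widely expressed β chain, was at 102 to 159 CPM in *db/m*, 112 to 194 CPM in *db/db* and 144 to 166 CPM in treated mice, so all groups overlapped. Its log2 fold change was 0.25 (95% interval -0.25 to 0.74) in *db/db* and 0.29 (-0.20 to 0.79) in treated against *db/m* mice, and the first was 0.01 without *db/db* replicate 3. Lamb2, the β chain abundant in glomerular and vascular basement membranes, was at 17.0, 11.3 and 38.6 CPM in *db/m*, 35, 26.0 and 12.1 CPM in *db/db*, and 30.5, 11.9 and 10.1 CPM in treated mice. Each group held at least 1 mouse near 12 CPM and 1 above 30 CPM, and the log2 fold changes of 0.11 (SE 0.54) and -0.34 (SE 0.53) against *db/m* were smaller than their errors. Both changed sign when a mouse was left out, ranging from -0.23 to 0.74 and from -1.0 to 0.29. Within a mouse, the ratio of Lamb1 to Lamb2 counts ran from 2.65 to 16.4.

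Both chains of the common collagen IV trimer were higher in treated than in *db/m* mice without overlap, although neither passed the adjusted threshold. Col4a1 was at 124, 155 and 81.3 CPM in *db/m*, 195, 129 and 179 CPM in *db/db*, and 198, 234 and 179 CPM in treated mice. Col4a2 was at 90.9, 106 and 73.3 CPM in *db/m*, 148, 101 and 176 CPM in *db/db*, and 163, 189 and 157 CPM in treated mice. In treated mice every value exceeded every *db/m* value, and in *db/db* mice replicate 2 fell within the *db/m* range for both genes. Against *db/m*, Col4a1 had a log2 fold change of 0.48 (SE 0.25, adjusted p = 0.418) in *db/db* and 0.76 (SE 0.25, adjusted p = 0.183) in treated mice in edgeR. For Col4a2 these were 0.65 (SE 0.22, adjusted p = 0.232) and 0.91 (SE 0.22, adjusted p = 0.112 in edgeR).

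Col4a3 and Col4a4 had levels per length that overlapped those of the common chains in *db/m* and *db/db* mice. In treated mice Col4a3 still overlapped them, whereas Col4a4 lay wholly below both, at up to 16.88 CPM per kb against at least 24.38 for Col4a2. Both genes scattered most in *db/db* and least in treated mice. Col4a3 was at 113, 170 and 71.5 CPM in *db/m*, 126, 126 and 289 CPM in *db/db*, and 184, 225 and 261 CPM in treated mice. Only the treated group lay wholly above *db/m*, with a log2 fold change of 0.92 (SE 0.36, adjusted p = 0.237 in edgeR). In *db/db* mice the log2 fold change of 0.61 (SE 0.36) fell to 0.08 without *db/db* replicate 3, the mouse with the highest level. Col4a4 was at 107 to 163 CPM in *db/m*, 95.6 to 231 CPM in *db/db* and 152 to 171 CPM in treated mice. Its groups overlapped, with log2 fold changes of 0.39 (SE 0.28) and 0.38 (SE 0.28) against *db/m*, and the first fell to 0.04 without *db/db* replicate 3.

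The proportions among chains were compared within each mouse, where library scaling has no part. These are ratios of counts not divided by transcript length, so they compare groups and do not rank the chains. The log2 ratio of Col4a1 to Col4a2 lay between 0.03 and 0.54 in the 9 mice. That of Col4a3 plus Col4a4 to Col4a1 plus Col4a2 lay between -0.23 and 0.55. In *db/m*, *db/db* and treated mice the first averaged 0.38 ± 0.20, 0.26 ± 0.20 and 0.26 ± 0.06, and the second 0.20 ± 0.16, 0.09 ± 0.41 and 0.05 ± 0.27 (SD, n = 3 each). For Lamb1 to Lamb2 the log2 ratios averaged 2.67 ± 1.1, 2.72 ± 1.1 and 3.33 ± 0.86. In all 9 comparisons of a ratio between 2 groups the groups overlapped, and exact two-sided permutation tests gave p from 0.4 to 1 (adjusted p = 1 over the 9 tests). With 3 against 3 mice such a test cannot go below 0.1.

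Nid1 and Fn1 were low and rested on few reads. Nid1 was at 1.26, 4.19 and 4.44 CPM in *db/m*, 11.6, 6.80 and 3.54 CPM in *db/db*, and 13.3, 5.91 and 2.38 CPM in treated mice. Its log2 fold changes against *db/m* were the highest point estimates of the set, 1.11 (SE 0.68) and 1.14 (SE 0.66), with overlapping groups and adjusted p of 0.505 and 0.36 in edgeR. Without treated replicate 1, the library with the high podocyte sum, the second was 0.35. Fn1 was at 1.73, 3.66 and 3.33 CPM in *db/m*, 8.16, 8.60 and 2.27 CPM in *db/db*, and 3.97, 4.59 and 2.94 CPM in treated mice. A pair of the *db/db* mice stood above all others and the third lay within the *db/m* range, with a log2 fold change of 1.09 (SE 0.51, adjusted p = 0.382 in edgeR) against *db/m*. In treated mice it was 0.41 (SE 0.51) against *db/m* and -0.69 (SE 0.49) against *db/db* mice.

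Counted together, all 10 genes had a log2 fold change above 0 in *db/db* against *db/m* mice, where 51.6% of all genes did, and the median was 0.63 against 0.02 for all genes tested. The groups did not overlap, with *db/db* higher, for 2 of 10 genes (Lama5 and Lamc1), against 8.28% of all genes, and 0 of 10 lay wholly lower, against 8.13%. An unadjusted p under 0.05 was found for 3 of the 10, against 13.7% of all genes. Without *db/db* replicate 3 the median of the 10 was 0.45. In the same comparison 10 of 10 endothelial markers were above 0, with a median of 0.70, and 8 of 10 proximal tubule markers, with a median of 0.48. In treated against *db/m* mice, 9 of 10 were above 0 (48.5% of all genes), with a median of 0.58 against -0.02. There, 5 of 10 genes lay wholly above *db/m* (Col4a1, Col4a2, Col4a3, Lama5 and Lamc1) against 14.4% of all genes, and none of the 10 was called by edgeR, DESeq2 or limma, against 1.05% of all genes in edgeR. The unadjusted p was under 0.05 in edgeR for 4 of the 10, against 18.2% of all genes, and 0 of 10 lay wholly lower, against 13.7%. Both comparisons share the *db/m* mice. The 10 genes are not independent counts, since several ran together over the mice, such as Col4a2 with Lamc1 (r = 0.98) and Col4a1 with Col4a2 (r = 0.94). They were also chosen with earlier results of these data known.

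In treated against *db/db* mice, 6 of 10 genes were above 0 (48.7% of all genes) and the median was 0.04 against -0.01. No member was called by edgeR, DESeq2 or limma, and 0% of all genes tested were called in edgeR. The unadjusted p was under 0.05 for 1 of the 10 (Lama5), against 5.19% of all genes, and Lama5 was also the 1 gene wholly lower, against 5.29%, while 0 of 10 lay wholly higher, against 4.9%. Apart from Lama5, intervals were wide enough to hold changes in either direction. For Col4a1 the 95% interval of the log2 fold change was -0.25 to 0.82, for Col4a2 -0.22 to 0.75, for Lamc1 -0.24 to 0.63, and for Nid1 -1.36 to 1.41.

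**Figure D3:**
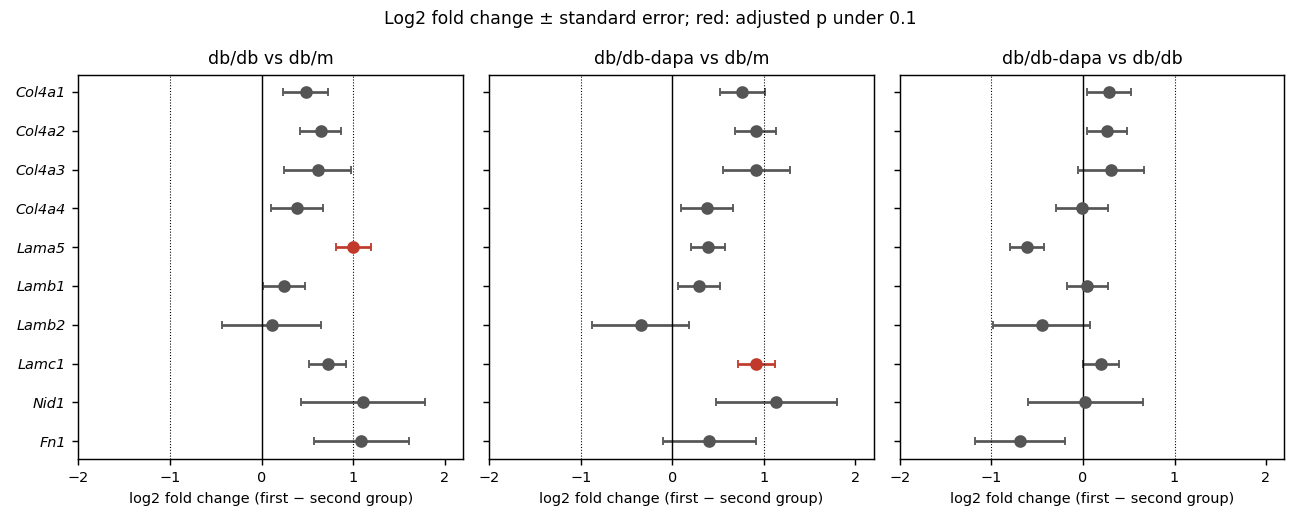
Log2 fold change ± standard error of each gene in the 3 comparisons (edgeR), with dotted lines at the threshold of 1 and red for an adjusted p under 0.1. Lama5 passes in *db/db* against *db/m* and Lamc1 in treated against *db/m* mice, and no gene passes between treated and *db/db* mice.

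The genes fell into patterns over the 9 mice that followed different marker sums. Col4a2 and Lamc1 ran together (r = 0.98 on log2 values, rho = 0.95), as did Col4a1 and Col4a2 (r = 0.94). The proximal tubule sum was 14589 to 16202 CPM in *db/m*, 14927 to 21664 CPM in *db/db* and 18125 to 22551 CPM in treated mice, so that it too lay wholly above *db/m* in the treated group. In treated against *db/m* mice 9 of its 10 markers had a log2 fold change above 0, and Slc27a2 was lower, at 3115 against 4083 CPM. The r of this sum was 0.91 with Col4a3, 0.87 with Lamc1, 0.84 with Col4a2, 0.81 with Lamb1, 0.80 with Col4a4 and 0.70 with Col4a1. Lamb2 and Nid1 went with the endothelial sum (r = 0.91 and 0.78) and the podocyte sum (r = 0.70 and 0.75), and Fn1 went with the endothelial sum (r = 0.68). The endothelial sum was 212 CPM in *db/m* replicate 3, 260 and 306 CPM in *db/db* replicates 1 and 2, and 297 CPM in treated replicate 1, against 66.2 to 96.0 CPM in the other 5 mice. Lamb2 was at 26.0 to 38.6 CPM in the first 4 of these mice and at 10.1 to 17.0 CPM in the other 5. Fibroblast, mesangial and pericyte markers summed to 10.9 to 80.2 CPM, with up to 5 of 12 at 0, and had an r of 0.83 with Lamb2. Collecting duct markers summed to 267 to 880 CPM in *db/m* and 181 to 299 CPM in treated mice, and their r was -0.86 with Col4a3 and 0.78 with Lamb2. The loop of Henle and distal tubule sum was 1268 to 2832 CPM in *db/m* and 1011 to 1103 CPM in treated mice, with an r of -0.815 with Col4a3 and 0.66 with Lamb2. These are descriptions over 9 mice of 3 groups, and the part of cell mixture in the fold changes was not tested.

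**Figure D4:**
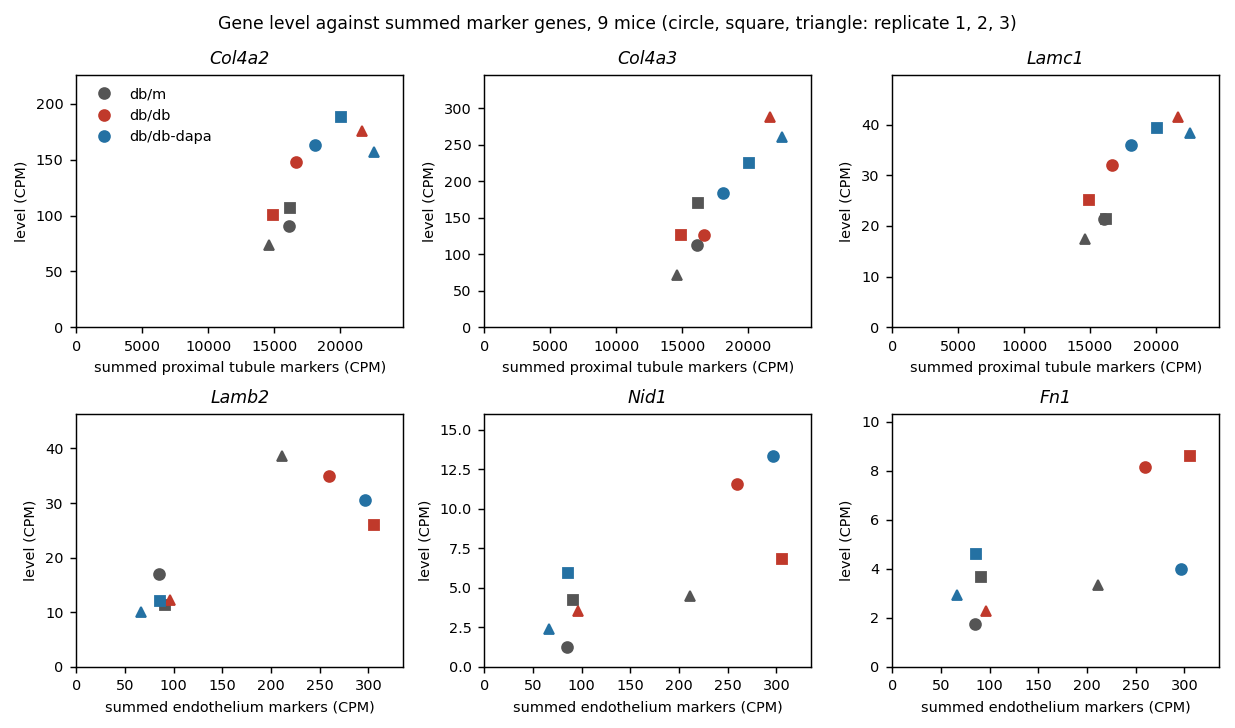
Level in CPM of 6 genes against the summed CPM of 10 proximal tubule markers (top) or 10 endothelial markers (bottom) in each mouse. Col4a2, Col4a3 and Lamc1 rise along the proximal tubule sum, and Lamb2 is high in the 4 mice with the highest endothelial sums.

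The genes of the whole table whose pattern was most like that of 3 members were found by Pearson's r of log2(CPM + 1) over the 9 mice, among genes with a mean of at least 5 CPM. For Lamc1 these were Actn4 (r = 0.98), an actin crosslinker, Col4a2 (r = 0.98) and Slc25a45 (r = 0.97), a mitochondrial carrier. For Col4a1 they were Akap2 and Pakap, names that share a locus and have nearly the same values, and Tcof1 (r = 0.96 each). For Fn1 they were Spns3 (r = 0.95), Zfp414 (r = 0.94) and Fbxo44 (r = 0.91). Without the 2 mice farthest from the member's median, r was 0.92, 0.80 and 0.72 for these 3. It was then 0.92 to 0.97 for the Lamc1 partners and 0.87 to 0.90 for those of Col4a1. Fn1 rested on 11 to 43 counts per mouse. Each set of 3 was picked as the highest r of 10515 or 10516 genes over 9 mice, so high values come in part from the selection.

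Of 26 other basement membrane components, 25 were tested. In *db/db* against *db/m* mice 2 were called higher and 0 lower, with 0.545% of all genes called higher. Col4a5, whose α5 chain assembles with the α3 and α4 chains, was at 18.1, 28.3 and 22.9 CPM in *db/m*, 64.6, 42.2 and 50.1 CPM in *db/db* and 38.2, 49.2 and 55.4 CPM in treated mice. Both *db/db* groups lay wholly above *db/m*, with log2 fold changes of 1.18 (SE 0.23, adjusted p = 0.0427) and 1.05 (SE 0.23, adjusted p = 0.0806 in edgeR). Nid2, the other nidogen, was at 8.22 to 14.0 CPM in *db/m*, 17.7 to 30.7 CPM in *db/db* and 22.6 to 36.4 CPM in treated mice. Its log2 fold changes were 1.15 (SE 0.28, adjusted p = 0.0991) and 1.38 (SE 0.28, adjusted p = 0.0621 in edgeR). In treated against *db/m* mice 3 genes were called higher, Col4a5, Nid2 and Npnt, with 0.578% of all genes called higher. Npnt encodes nephronectin, a ligand of integrin α8β1, and rose from 55.4 ± 12.2 to 119 ± 20.0 CPM (SD, n = 3, log2 fold change 1.1, adjusted p = 0.0601 in edgeR). Among genes with a mean over all 9 mice of at least 5 CPM, the lowest fold in both comparisons was that of Tinagl1, a matrix glycoprotein, at -1.13 and -1.20 on the log2 scale (adjusted p = 0.16 and 0.119 in edgeR). The medians of the 25 were 0.11 and 0.21. Between treated and *db/db* mice edgeR, DESeq2 and limma called 0 of them. Among genes with that mean of at least 5 CPM, Npnt was highest there at 0.61 and Hspg2, the perlecan gene, lowest at -0.61 (adjusted p = 0.854 each in edgeR). The unadjusted p in edgeR was under 0.05 for 8 of the 25 in *db/db* against *db/m*, where 13.7% of all genes were. It was under 0.05 for 6 in treated against *db/m* (18.2% of all genes) and for 2 in treated against *db/db* mice (5.19%).

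Among the genes that modify, bind and degrade matrix, the 1 called gene was Mep1b, of the turnover list. Over all genes 1.24% were called in *db/db* against *db/m*, 1.05% in treated against *db/m* and 0% in treated against *db/db* mice. Of 22 tested genes of collagen synthesis, secretion and crosslinking, edgeR called 0 in each comparison, with an unadjusted p under 0.05 for 5, 3 and 0 in *db/db* against *db/m*, treated against *db/m* and treated against *db/db*. Over all genes the shares under 0.05 were 13.7%, 18.2% and 5.19%, against which this count and those of the receptor and interstitial lists are to be read. Extremes named for these lists are among genes with a mean over all 9 mice of at least 5 CPM. Serpinh1, the collagen chaperone HSP47, was at 145 ± 25.8 CPM in *db/m* and 67.0 ± 27.1 CPM in *db/db* mice (log2 fold change -1.13, adjusted p = 0.103 in edgeR), without overlap. P3h2, a prolyl 3-hydroxylase of type IV collagen, was at 59.9 ± 18.1 CPM in *db/m*, 113 ± 38.2 CPM in *db/db* and 135 ± 35.8 CPM in treated mice, with log2 fold changes of 0.91 and 1.17 (adjusted p = 0.21 and 0.112 in edgeR). Pxdn, the peroxidase that crosslinks collagen IV, had the lowest fold above that level in treated against *db/m* mice, at -0.98 (adjusted p = 0.165 in edgeR). Of 18 matrix receptors edgeR called 0 in each comparison, with an unadjusted p under 0.05 for 1, 5 and 0. Itgb8, the integrin β8 subunit, had the highest fold above that level against *db/m*, 2.41 in *db/db* and 2.49 in treated mice (SE 0.83 each, adjusted p = 0.233 and 0.194 in edgeR), with an SD in *db/db* of 74.5 around a mean of 60.7 CPM. Bcam, a receptor of laminin α5, had the lowest above it, at -0.58 and -1.21 (adjusted p = 0.684 and 0.275 in edgeR). Between treated and *db/db* mice, the highest and lowest above that level were Serpinh1 (0.54) and Colgalt2 (-0.80) for synthesis and Itga6 (0.47) and Bcam (-0.64) for receptors, with an adjusted p of 0.854 each in edgeR.

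Of 18 tested genes of matrix turnover, Mep1b alone was called, lower in both groups of *db/db* mice, where 0.699% and 0.475% of all genes were called lower. Mep1b encodes the β subunit of meprin, a brush border metalloprotease that cleaves matrix proteins. It was at 47.6, 19.2 and 46.8 CPM in *db/m*, 0, 0.80 and 4.29 CPM in *db/db*, and 1.42, 2.49 and 4.86 CPM in treated mice. Its log2 fold changes were -4.16 (SE 0.71, adjusted p = 0.0228) and -3.66 (SE 0.66, adjusted p = 0.042 in edgeR). Htra1, a secreted serine protease, had the highest fold above that level between treated and *db/db* mice, at 219 ± 35.3 against 114 ± 21.0 CPM (log2 fold change 0.93, unadjusted p = 0.000921, adjusted p = 0.854 in edgeR). Above the same level, the highest folds against *db/m* were those of Plat (0.27) in *db/db* and Adamts1 (0.57) in treated mice, and Mmp24 (-0.46) was lowest between treated and *db/db* mice (adjusted p = 0.895, 0.487 and 0.854 in edgeR). Of 14 tested interstitial matrix genes edgeR called 0 in each comparison, with an unadjusted p under 0.05 for 2, 1 and 1. Bgn, the biglycan gene, was the only one with a mean over all 9 mice of at least 5 CPM, at 5.59 ± 1.97 CPM in *db/m*, 7.61 ± 4.84 CPM in *db/db* and 13.4 ± 16.5 CPM in treated mice. The gene with an unadjusted p under 0.05 between treated and *db/db* mice was Eln, the elastin gene, named after its values were seen, at 1.78 ± 0.34 against 9.01 ± 7.19 CPM without overlap (log2 fold change -2.27, unadjusted p = 0.00414, adjusted p = 0.854 in edgeR). Over the basement membrane, synthesis, receptor and turnover lists, calls numbered 3 and 4 against *db/m*, and both counts fell to 0 without *db/m* replicate 1. The first was 1 without *db/m* replicate 3 and 5 without *db/db* replicate 1. The second was 2 without *db/m* replicate 2, 0 without *db/m* replicate 3, and 7, 0 and 1 without treated replicates 1, 2 and 3.

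**Figure D5:**
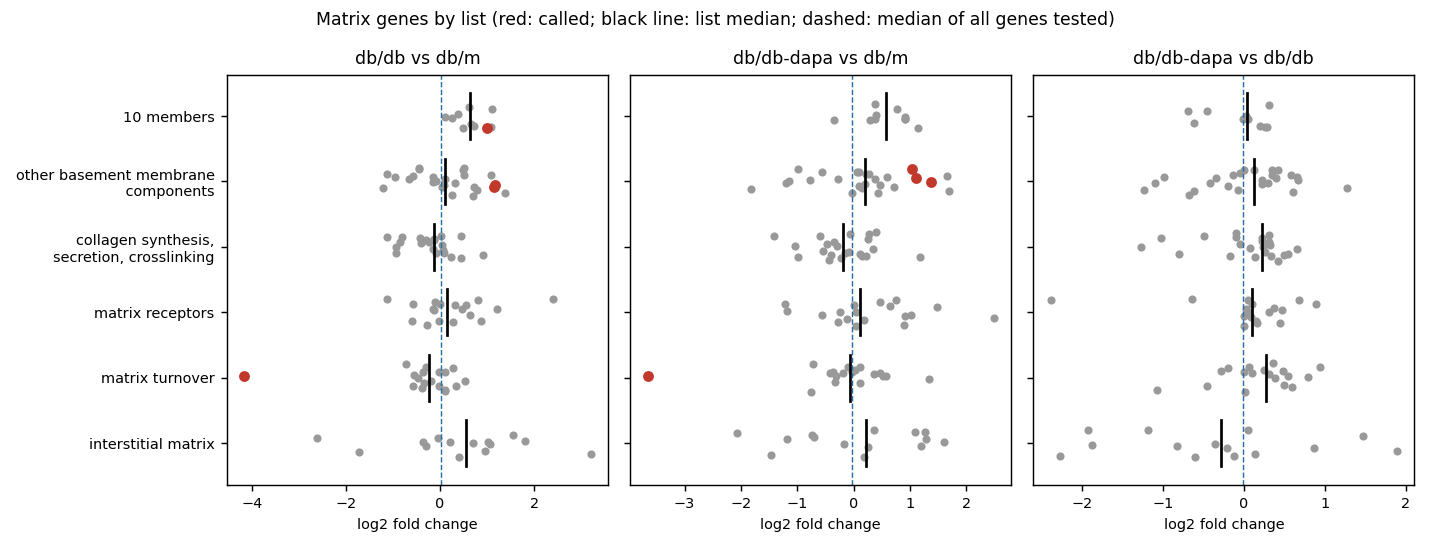
Log2 fold change of each tested gene of the 10 members and 5 matrix lists in the 3 comparisons, with red for called genes, a black line at each list's median and a dashed line at the median of all genes. Calls against *db/m* are Lama5, Col4a5, Nid2 and Npnt, higher, and Mep1b, lower, and the panel of treated against *db/db* mice holds none.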

How the data were processed

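RNA from FACS-sorted tdTomato-positive cells was analysed, from 3 mice each of the *db/m*, *db/db* and dapagliflozin-treated (*db/db*-dapa) groups, assigned by the sample labels, which give the tissue as kidney. According to the submitters' processing notes, the authors used TopHat2 2.0.13, Bowtie2 2.2.3, SAMtools 0.1.19 and Cufflinks 2.2.1 on mm10. The deposited table is named as FPKM but holds estimated counts: 85.9% of values above 0 are whole and column sums differ. How the authors made these estimated counts is not given in the sources used here, so tests planned for counts were run on the values rounded to whole numbers.

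Genes at 0.3 CPM or more in at least 2 of 9 mice entered edgeR 4.0.16 (quasi-likelihood F-test, R 4.3.3, TMM, all 9 mice, no block), with Benjamini-Hochberg adjustment over 15583 genes. Calls followed the study's thresholds, a log2 fold change beyond 1 in either direction at an adjusted p below 0.1. Between treated and *db/db* mice the paper, which also used edgeR, reports 13 differentially expressed genes of 15610, where edgeR called 0 of 15583 here. Among the alternatives, DESeq2 called 13 of 15583, and whether these are the genes of the paper was not compared. A filter of 0.5 CPM in at least 1 mouse kept 15610 genes, with 0 called in edgeR. The cause of the difference from the paper was not tested. Standard errors were derived from the F values. Ratios within a mouse used counts + 0.5. Alternatives were RLE size factors, 75th percentile scaling, library totals, DESeq2 1.42.0, limma 3.58.1 on log2(CPM + 1), other filters, 2 groups only, a replicate block and leaving out each mouse. The edgeR, DESeq2 and limma steps were tested on simulated data. Coordinates and transcript lengths came from GENCODE on GRCm38.

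The members and lists were chosen with earlier results of these data known. Beyond the members, genes were named if called, or if highest or lowest in a list and comparison at a mean of at least 5 CPM, or if most like Col4a1, Lamc1 or Fn1 over the mice.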

Additional observations from a re-analysis of the deposited data

How the results depend on the processing

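Of the 300 log2 fold changes of the members under 10 other settings, 287 kept their direction and call, 5 lost the call and 8 changed sign. In *db/db* against *db/m* mice, the number of members called went from 1 to 0 with RLE size factors, DESeq2, limma, 2 groups only and the replicate block. The log2 fold change of Lama5 was just under 1 in each, and with 2 groups only its adjusted p (0.109) missed the threshold too. There, the number with an adjusted p under 0.1 was 2 with DESeq2 and 0 with 2 groups only, and the 4 lists held 5 calls with DESeq2. In treated against *db/m* mice, the number of members with an adjusted p under 0.1 was 3 with DESeq2, 0 with limma, 2 with no filter, 4 with 2 groups only and 0 with the replicate block, and the 4 lists held 7 calls with 2 groups only. The cause was not tested. DESeq2 called 363, 507 and 13 genes over the whole table in the 3 comparisons, where edgeR called 194, 164 and 0. With 2 groups only edgeR called 114 and 626 against *db/m*, with no filter 275 in treated against *db/m*, and leaving out 1 mouse gave 84 to 230 and 14 to 254. Scaling by library totals shifted the median of all genes to 0.13 in *db/db* against *db/m* mice, and 141 of 234 called genes were then higher, against 85 of 194.

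The changes of sign were all between treated and *db/db* mice and near 0. Lamb1 was at -0.0128 with 75th percentile scaling and -0.0215 with library totals. Nid1 was at -0.0373 and -0.0349 with these, -0.14 with limma and -0.0788 with the replicate block. Col4a4 was at 0.0786 with limma and 0.0116 with the replicate block. Deviations of same-numbered mice had correlations from -0.32 to 0.56, over 0.1 in 3 of 9 pairs. Those of other pairs ran from -0.61 to 0.36, over 0.1 in 7 of 18. Replicates 1 and 3 of *db/db* and treated mice had 0.40 and 0.56, above every other pair, and replicate 2 had -0.16. With 3 mice per group these values do not settle whether the numbers pair the mice.

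Leaving out 1 mouse at a time gave 0 to 1 members called in *db/db* against *db/m* and 0 to 0 in the others. Members with an adjusted p under 0.1 ranged from 0 to 1, 0 to 0 and 0 to 1 in *db/db* against *db/m*, treated against *db/m* and treated against *db/db*, and calls in the 4 lists from 0 to 5, 0 to 7 and 0 to 3. The upper values in the last comparison came without *db/db* replicate 3, when 272 genes were called in all. Log2 fold changes ranged for Lamb2 from -0.23 to 0.74 and from -1.0 to 0.29 against *db/m*, and between treated and *db/db* mice for Lamb1 from -0.13 to 0.29, for Col4a4 from -0.29 to 0.34 and for Nid1 from -0.76 to 0.49. Differences in the log2 ratio of Col4a1 to Col4a2 ranged from -0.23 to 0.00024 in *db/db* against *db/m* and from -0.12 to 0.0693 in treated against *db/db*. For Col4a3 plus Col4a4 to Col4a1 plus Col4a2 these were -0.34 to 0.0511 and -0.20 to 0.19, and for Lamb1 to Lamb2 in *db/db* against *db/m* they were -0.59 to 0.41. Depth limits Nid1 and Fn1 most, at 8 to 94 and 11 to 43 counts per mouse.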
